A study of Mus musculus with 6 samples.

Results

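The secretory and transport proteins of Sertoli cells were followed through 7 genes, *Clu*, *Trf*, *Cst3*, *Cst8*, *Cst9*, *Cst12* and *Shbg*, taken by name from the 28262 genes of the deposited count table. RNA-seq was made from Sertoli cells of untreated 20-day-old C57BL/6 mice, with 3 libraries per genotype. The control libraries are labelled Pa1F/F and carry floxed alleles of *Pa1*. The knockout libraries are labelled Pa1-/- and are called Amh-pa1-/- here, since a Cre recombinase under the *Amh* promoter, which is active in Sertoli cells from fetal life, removes the floxed alleles. The cells were dispersed with enzymes, plated in a medium with insulin, EGF and transferrin, and washed to remove unattached germ cells. PA1 is a subunit of the MLL3/MLL4 histone methyltransferase complexes, and the comparison asks which transcripts depend on it. The labels do not say how many animals went into a library or whether libraries came from separate preparations, so p-values measure only the spread between these libraries, which may be technical.

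Sertoli cells seal the seminiferous epithelium behind the blood-testis barrier and carry to the germ cells what the blood cannot deliver. Transferrin (*Trf*) shuttles iron, androgen-binding protein (*Shbg*) holds testosterone and dihydrotestosterone in the tubule fluid, and clusterin (*Clu*, also known as sulfated glycoprotein 2) is an extracellular chaperone and lipid carrier secreted in bulk. Cystatins are small inhibitors of cysteine proteases. Cystatin C (*Cst3*) is made in most tissues, while *Cst8* (CRES), *Cst9* (testatin) and *Cst12* belong to reproductive branches of the family, and *Cst9* is known from the Sertoli cells of the fetal testis.

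*Cst9* was 7.20-fold higher in Amh-pa1-/- Sertoli cells, whereas *Shbg* was 2.44-fold lower and *Clu* 1.61-fold lower. *Cst12*, in the same gene block as *Cst9*, was 1.19-fold higher, and *Cst3* and *Cst8* did not pass the test. *Trf* was close to undetected in both genotypes. Genes are called differentially expressed here where the adjusted p-value was below 0.05 and the log2 fold change was 1 or more in either direction. By this rule 2 of the 6 members that passed the filter on low counts stood out, 1 higher and 1 lower, beside 12% of all 14919 tested genes (5.44% higher and 6.56% lower). Without the fold threshold 4 of the 6 passed, 2 in each direction, beside 35.3% of all tested genes (18.2% higher and 17.1% lower). The test was edgeR's quasi-likelihood F-test with Benjamini-Hochberg adjustment over all tested genes. Normalized counts are counts scaled by edgeR's TMM method to a common library size. Genes are said to have risen or fallen where the adjusted p-value was under 0.05.

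The promoters of *Cst9*, *Cst12* and *Shbg* are printed because *Cst9* and *Shbg* were differentially expressed in opposite directions and *Cst12* is a close neighbour of *Cst9* that changed little. Each holds 250 bases before and 50 bases after the start of the gene on GRCm38.p6, from RefSeq, read 5′ to 3′ along the gene. Capitals mark matches on either strand to the AP-1 motif TGANTCA, the core TGACG of the cAMP response element, the arm TGTTCT of the androgen response element or the TATA box with the letters TATAAA.
Cst9 promoter, chr2:148834897-148835196, plus strand: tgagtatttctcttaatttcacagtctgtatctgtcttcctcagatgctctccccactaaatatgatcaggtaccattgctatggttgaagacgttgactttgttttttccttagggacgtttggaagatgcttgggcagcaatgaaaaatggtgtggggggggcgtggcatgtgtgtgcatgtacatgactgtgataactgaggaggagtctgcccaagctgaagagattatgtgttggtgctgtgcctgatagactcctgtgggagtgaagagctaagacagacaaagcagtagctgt
Cst12 promoter, chr2:148789115-148789414, plus strand: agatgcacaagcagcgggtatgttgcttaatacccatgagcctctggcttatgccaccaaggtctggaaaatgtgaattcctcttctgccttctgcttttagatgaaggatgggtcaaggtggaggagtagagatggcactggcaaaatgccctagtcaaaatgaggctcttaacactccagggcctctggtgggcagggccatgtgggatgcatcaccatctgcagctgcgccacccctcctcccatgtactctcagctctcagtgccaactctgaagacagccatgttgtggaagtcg
Shbg promoter, chr11:69617856-69618155, minus strand: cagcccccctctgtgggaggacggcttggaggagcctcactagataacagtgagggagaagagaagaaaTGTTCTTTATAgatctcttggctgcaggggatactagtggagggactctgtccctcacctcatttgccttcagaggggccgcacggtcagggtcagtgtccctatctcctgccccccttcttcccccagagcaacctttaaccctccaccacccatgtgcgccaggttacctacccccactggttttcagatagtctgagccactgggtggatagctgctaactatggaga
The windows of *Cst9* and *Cst12* held none of these letters. In *Shbg*, TGTTCT began at position -181 from the start and overlapped by 1 base a TATAAA match on the other strand, which began at -176. Of 32851 RefSeq promoters of this length, 7.81% held TGANTCA, 20.8% TGACG, 19.0% TGTTCT and 13.6% TATAAA. *Cst3* held TGTTCT on the other strand at -218 and -100, and *Cst8* held none of the 4 motifs. Of the 7 members, 5 had an entry in the promoter table, and *Clu* and *Trf* are named only.

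Total counts lay between 13203757 and 16231443 per library, at which 3 counts, taken as the floor, stand for 0.185 to 0.227 CPM, a count relative to the library total. This floor covers counting error only, as the reads carry no molecular identifiers, while the intervals of fold changes rest on the spread between libraries. Of the pairs of replicates, control 1 with control 3 and knockout 1 with knockout 2 were close (chi-square per degree of freedom 2.23 and 1.67), while pairs with control 2 or knockout 3 lay between 18.4 and 30.1, so that these libraries stand apart from their groups. A list of 20 Sertoli cell markers summed to between 6630.0 and 6874 CPM in control and between 6368 and 6482 CPM in knockout libraries, with 3 of 18 tested genes differentially expressed, all lower. At an adjusted p under 0.05 alone, 6 were lower and 2 higher (44.4%, beside 35.3% of all tested genes). The most abundant of them, *Vim*, rose from a mean of 27860 to 35494 normalized counts (log2 fold change 0.35, edgeR adjusted p = 0.0155). The Sertoli cell markers *Rhox5* and *Tsx* had at most 16 counts in any library. Leydig cell markers lay between 829.6 and 931 CPM in control and between 175 and 342 CPM in knockout libraries, with 3 of 4 tested genes lower, while the defining *Insl3* and *Cyp17a1* had at most 3 counts in any library. Macrophage markers lay between 133 and 146 CPM in control and between 79.2 and 93.8 CPM in knockout libraries, with 10 of 12 tested genes lower. The most abundant of them, *Mrc1*, did not pass, with 984 ± 38.8 and 1109 ± 155 normalized counts in control and knockout cells (log2 fold change 0.17, edgeR adjusted p = 0.254), while *Lyz2* fell 9.56-fold (edgeR adjusted p = 0.00217). Spermatogonia markers lay between 192 and 222 CPM in control and at 190.1, 199 and 116 CPM in knockout 1, 2 and 3. *Gfra1*, *Kit* and *Ddx4*, 3 of 5 tested genes, were lower, with at most 46 counts in any library. Most of this sum came from *Uchl1*, which did not pass (log2 fold change -0.35, edgeR adjusted p = 0.2996). *Id4* had 20, 10 and 15 counts in control and 32, 24 and 128 in knockout replicates 1, 2 and 3 (log2 fold change 2.09, edgeR adjusted p = 0.0520). Endothelial markers lay between 117 and 121 CPM in control and between 63.4 and 105 CPM in knockout libraries, where *Cdh5* fell 1.82-fold and *Pecam1* 3.31-fold (edgeR adjusted p = 0.000536 and 0.00918) and *Vwf* rose. Peritubular myoid markers lay between 351 and 421 CPM in control and reached 1001, 975 and 1471 CPM in knockout 1, 2 and 3, with 2 of 7 tested genes higher. Most of the difference in this sum came from counts of *Acta2*, with 2968 ± 378 normalized counts in control and 13194 ± 1908 in knockout cells (SD, n = 3), and the other higher gene was *Smtn*. *Myh11*, with 649, 481 and 580.0 normalized counts in control and 216, 164 and 1605 in knockout replicates 1, 2 and 3, was below every control in knockout 1 and 2 and above them in knockout 3, as were *Actg2* and *Des*, and *Ptch1* fell 1.26-fold (edgeR adjusted p = 0.0483). The part of these markers in the results was not tested. In bulk RNA, fewer cells of a type and less RNA per cell cannot be told apart.

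Levels were compared between genes as CPM per kilobase of the canonical transcript. In Pa1F/F cells the level was 7211 ± 49.96 for *Clu*, 567 ± 9.24 for *Cst3*, 261 ± 4.73 for *Cst12*, 64.4 ± 3.07 for *Shbg*, 20.0 ± 2.70 for *Cst9*, 1.78 ± 0.633 for *Cst8* and 0.0758 ± 0.0202 for *Trf* (SD, n = 3). In Amh-pa1-/- cells it was 4504 ± 970.0 for *Clu*, 529.9 ± 32.6 for *Cst3*, 313 ± 23.3 for *Cst12*, 145 ± 59.5 for *Cst9*, 26.6 ± 7.99 for *Shbg*, 1.61 ± 0.593 for *Cst8* and 0.108 ± 0.0524 for *Trf* (SD, n = 3). *Cst9* and *Shbg* changed places, and the libraries of neighbours in each order did not overlap. Ranked by this level among all listed genes with a length, *Clu* held place 2 in both genotypes and *Cst9* went from place 3624 to place 325. With the union of all annotated exons as the length, both orders were the same.

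**Figure D1:**
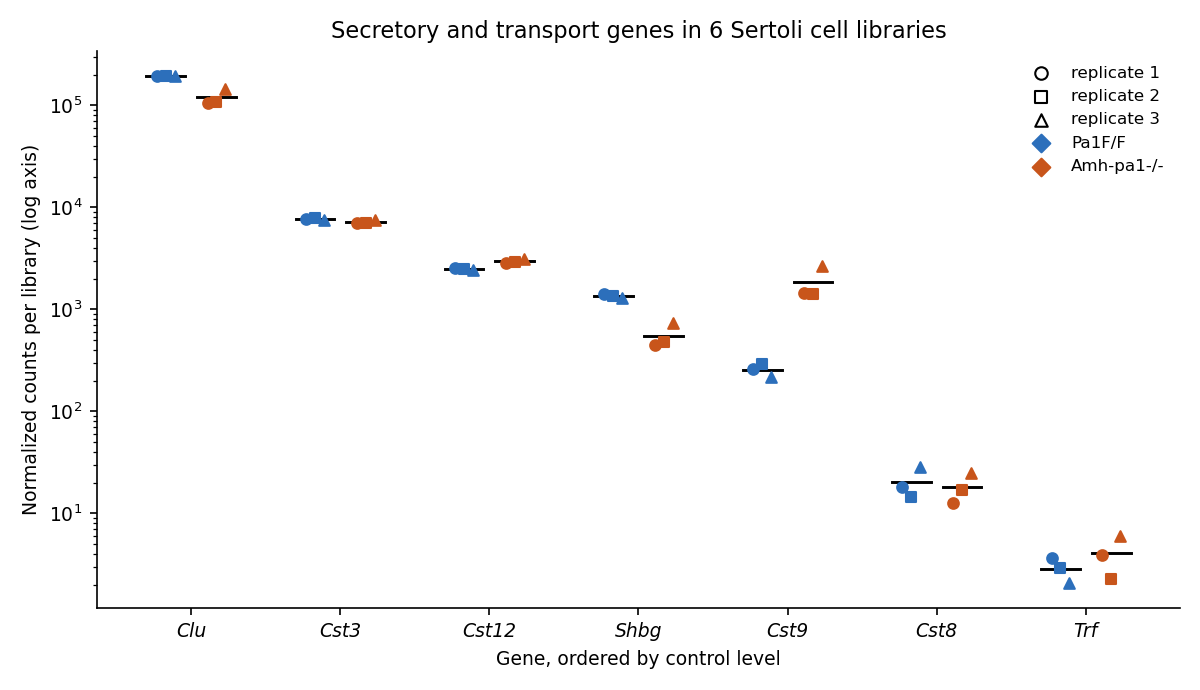
Normalized counts of the 7 genes in each library on a log axis, Pa1F/F in blue and Amh-pa1-/- in orange, with a symbol for each replicate number and black bars at the group means. *Cst9* goes from a mean of 256 to 1845 and *Shbg* from 1352 to 554 with no overlap between the genotypes, while *Trf* is near the floor throughout.

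*Clu* (ENSMUSG00000022037, chromosome 14, 65968483 to 65981547, plus strand, GRCm38 as for all positions given) had 194105, 193511 and 192489 normalized counts in Pa1F/F replicates 1, 2 and 3. In Amh-pa1-/- replicates 1, 2 and 3 it had 105693, 107472 and 146325. The controls were almost level, with a coefficient of variation of 0.423%, and all knockout libraries lay below them, knockout 3 nearest. The log2 fold change was -0.69 (SE 0.17, 95% interval -1.10 to -0.28, edgeR adjusted p = 0.0220), so that *Clu* fell but stayed short of the fold threshold. An exact two-sided permutation test gave p = 0.1, the smallest that 3 against 3 libraries allow. The fall did not pass without control 1 (edgeR adjusted p = 0.0662), control 3 (0.0620), knockout 1 (0.103) or knockout 2 (0.101). Without knockout 3 the log2 fold change was -0.86 (edgeR adjusted p = 0.000408).

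*Shbg* (ENSMUSG00000005202, chromosome 11, 69614804 to 69617905, minus strand) had 1408, 1366 and 1283 normalized counts in Pa1F/F replicates 1, 2 and 3. In Amh-pa1-/- replicates 1, 2 and 3 it had 451, 481 and 729. Every knockout library lay below every control library (exact permutation p = 0.1), and knockout 3 was again nearest to the controls. The log2 fold change was -1.29 (SE 0.18, 95% interval -1.72 to -0.86, edgeR adjusted p = 0.00253). It stayed past both thresholds with each library left out in turn, from -1.54 without knockout 3 to -1.16 without knockout 1, with edgeR adjusted p-values of at most 0.0149. The interval includes a value of -1, and edgeR's glmTreat, which asks whether a change exceeds 2-fold, did not pass (adjusted p = 0.328). With the close pairs of replicates summed, the adjusted p was 0.0523 with edgeR. Of all tested genes, 9.42% had a larger absolute log2 fold change.

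*Trf* (ENSMUSG00000032554, chromosome 9, 103204001 to 103230444, minus strand) had 4, 3 and 2 counts in Pa1F/F replicates 1, 2 and 3. In Amh-pa1-/- replicates 1, 2 and 3 it had 4, 2 and 6 counts. The libraries overlapped at or next to the floor, and no fold change is given. *Trf* lay between 0.142 and 0.420 CPM, where a difference between the genotypes was not detectable at this depth. The receptor for iron-loaded transferrin, *Tfrc*, had 804, 669 and 815 normalized counts in control and 1047, 1017 and 724 in knockout replicates 1, 2 and 3, with knockout 3 within the control range (log2 fold change 0.29, SE 0.16, edgeR adjusted p = 0.195).

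*Cst9* (ENSMUSG00000027445, chromosome 2, 148835147 to 148838738, plus strand) had 262, 289 and 218 normalized counts in Pa1F/F replicates 1, 2 and 3. In Amh-pa1-/- replicates 1, 2 and 3 it had 1451, 1419 and 2664. The lowest knockout library was far above the highest control library, and knockout 3 lay above the other two (exact permutation p = 0.1). The log2 fold change was 2.85 (SE 0.28, 95% interval 2.19 to 3.51, edgeR adjusted p = 0.000694), an interval of 4.56 to 11.4 as a fold. Of the 14919 tested genes, 77 had a higher log2 fold change. *Cst9* was differentially expressed in all 16 other settings tried, from 2.49 without knockout 3 to 3.02 without knockout 2, and it passed the test for a change beyond 2-fold (edgeR's glmTreat, adjusted p = 0.00654).

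*Cst12* (ENSMUSG00000027443, chromosome 2, 148789361 to 148793546, plus strand) had 2525, 2479.6 and 2446 normalized counts in control and 2850.3, 2886 and 3133 in knockout replicates 1, 2 and 3. The groups did not overlap, and the log2 fold change was 0.25 (SE 0.05, 95% interval 0.12 to 0.38, edgeR adjusted p = 0.0129). The rise did not pass without control 3 (edgeR adjusted p = 0.0611), with the close pairs of replicates summed (0.111) or with the replicate number as a block (0.0560). *Cst3* (ENSMUSG00000027447, chromosome 2, 148871722 to 148875692, minus strand) had 7692, 7922 and 7608 normalized counts in control and 7105, 6968 and 7517 in knockout replicates 1, 2 and 3. These groups did not overlap either, as for 5 of the 6 tested members and for 52.4% of all tested genes, but the difference did not pass (log2 fold change -0.11, SE 0.06, 95% interval -0.24 to 0.03, edgeR adjusted p = 0.204). Without knockout 3 it was -0.14 (edgeR adjusted p = 0.0344).

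*Cst8* (ENSMUSG00000027442, chromosome 2, 148798785 to 148805595, plus strand), best known from the caput epididymis and from spermatids, was just above the filter. It had 20, 15 and 27 counts in control and 13, 15 and 25 counts in knockout replicates 1, 2 and 3. The libraries overlapped, and the log2 fold change of -0.15 had a wide interval (SE 0.37, -1.04 to 0.74, edgeR adjusted p = 0.784). Its sign was positive without control 3 (0.15) and without knockout 1 (0.06). Markers of the caput epididymis summed to at most 1.92 CPM in any library, with 3 of 12 in the table, and spermatid markers to at most 8.28 CPM.

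**Figure D2:**
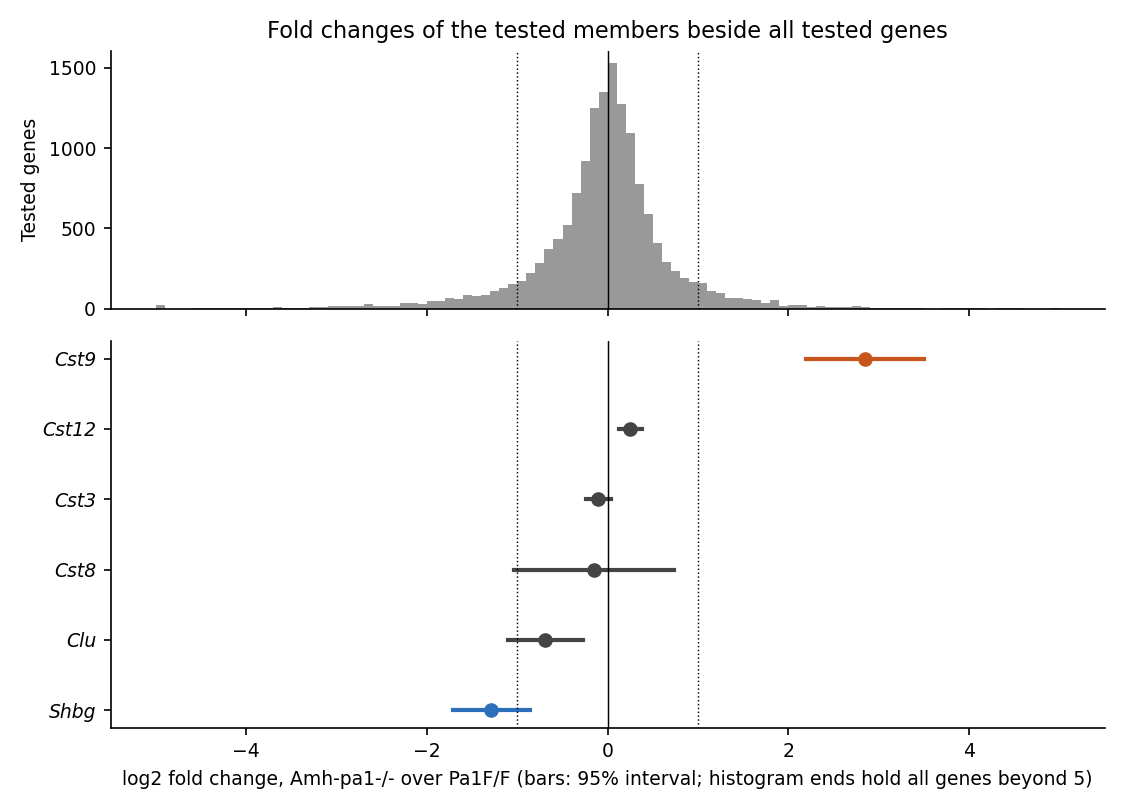
Log2 fold changes of all 14919 tested genes as a histogram, and of the 6 tested members as points with 95% intervals, on the same axis, with lines at 0 and at the thresholds of -1 and 1. The interval of *Cst9* lies above 1, that of *Shbg* spans -1, and that of *Cst8* spans 0.

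The 4 cystatin members lie in a block of 9 listed genes on chromosome 2 from 148750358 to 148875692, a stretch of 125 kb. In it 5 genes passed the filter, and *Cstl1*, *Cst11*, *Cst13* and *9230104L09Rik* had at most 7 counts in any library. *Cst8* and the near-silent *Cst13* sit between the well expressed *Cst12* and *Cst9*. On the other side of *Cst12* lies *8030411F24Rik*, named after its values were seen. It had 753, 649.7 and 661 normalized counts in control and 1425, 1470.1 and 1201 in knockout replicates 1, 2 and 3. It rose with no overlap, by a log2 fold change of 0.99 (SE 0.10, edgeR adjusted p = 0.000784), just short of the fold threshold. Log2 fold changes within the block thus ran from -0.15 to 2.85.

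**Figure D3:**
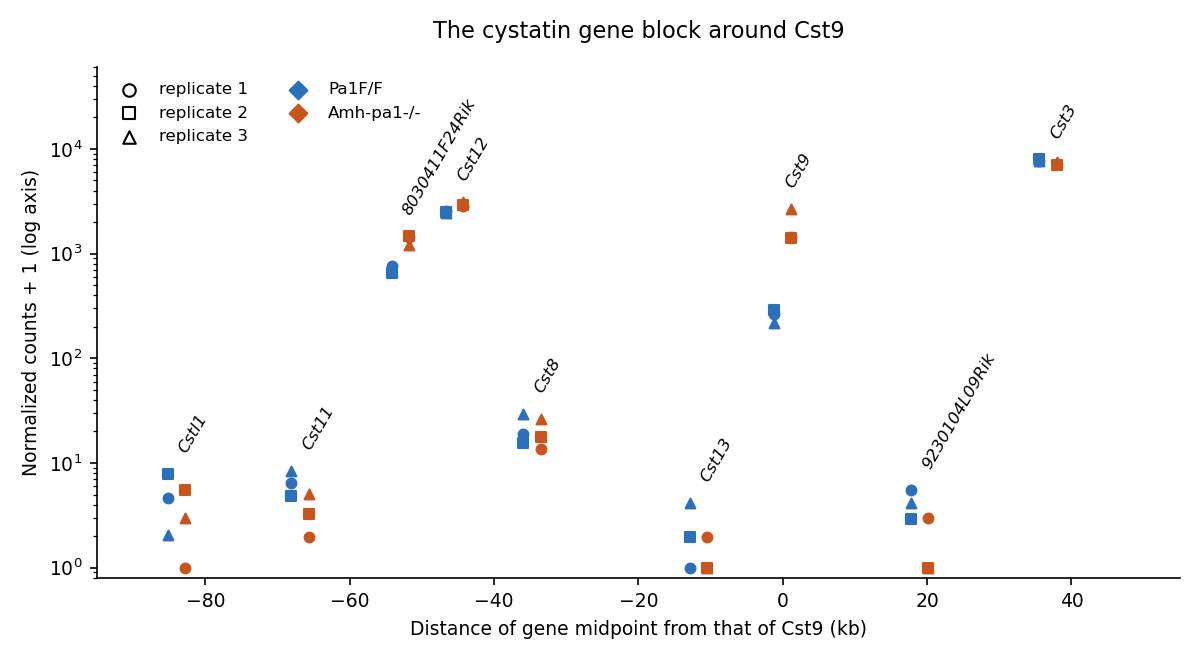
Normalized counts plus 1 of the 9 genes of the cystatin block in each library on a log axis, Pa1F/F in blue and Amh-pa1-/- in orange, placed by the distance of the gene's midpoint from that of *Cst9* in kb. *Cst9* and *8030411F24Rik* stand higher in all 3 knockout libraries, *Cst12* and *Cst3* shift little, and 4 genes are near the floor.

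Ratios of counts within a library do not depend on how libraries are scaled. For each read of *Cst12* there were 0.104, 0.116 and 0.0892 reads of *Cst9* in control and 0.509, 0.492 and 0.850 in knockout replicates 1, 2 and 3. The change of *Cst9* exceeded that of *Cst12* by 2.54 on the log2 scale, with no overlap (exact two-sided permutation test, p = 0.1). For each read of *Cst3* there were 25.2, 24.4 and 25.3 reads of *Clu* in control and 14.9, 15.4 and 19.5 in knockout replicates 1, 2 and 3 (exact permutation p = 0.1). The ratio of *Shbg* to *Clu* was 0.00725, 0.00706 and 0.00666 in control and 0.00427, 0.00448 and 0.00499 in knockout replicates 1, 2 and 3, so that *Shbg* was lower relative to *Clu* in every knockout library (log2 difference -0.61, exact permutation p = 0.1). Among 6 such ratios all p-values were 0.1, also after adjustment. Against the mean of knockout 1 and 2, knockout 3 held 1.37 times the normalized count of *Clu*, 1.57 times that of *Shbg* and 1.86 times that of *Cst9*, but 1.07 times that of *Cst3* and 1.09 times that of *Cst12*.

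Of 23 further cystatins and related inhibitors, 10 were listed and 4 tested, and none passed at an adjusted p under 0.05 with edgeR, DESeq2 or limma-voom, nor at an unadjusted p under 0.05 (0 genes with each). The intracellular cystatin B (*Cstb*) had 1447 ± 147 normalized counts in control and 1170.1 ± 219 in knockout cells (SD, n = 3), a log2 fold change of -0.31 (edgeR adjusted p = 0.149). *Cst6*, *Fetub* and *Ahsg* had log2 fold changes of -0.49, 0.23 and -0.56 (edgeR adjusted p = 0.248, 0.407 and 0.215). Of 11 cysteine proteases, most of them targets of cystatins, 3 were differentially expressed and all lower (27.3%, beside 12% of all tested genes and 6.56% lower), at a median log2 fold change of -0.33 beside 0.00 over all tested genes. *Ctss*, known from antigen-presenting cells, fell from 357 ± 49.9 to 21.9 ± 9.72 normalized counts (SD, n = 3; log2 fold change -4.02, edgeR adjusted p = 0.000219). *Ctsc* fell from 489 ± 277 to 59.7 ± 25.5 (edgeR adjusted p = 0.00409), and *Ctsk*, known from osteoclasts, fell 2.48-fold (edgeR adjusted p = 0.000441). Beside these, 10 of 12 macrophage markers were lower, and their part was not tested. *Ctsl*, a classical secreted product of Sertoli cells, had 57541 ± 8194 normalized counts in control and 45673 ± 11574 in knockout cells (SD, n = 3) and did not pass (edgeR adjusted p = 0.236), while *Ctsb* fell 1.56-fold (edgeR adjusted p = 0.000705).

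Iron handling around transferrin was tested for 21 of 24 genes, of which 3 were differentially expressed and lower (14.3%, near the 12% of all tested genes), at a median log2 fold change of -0.61. Without the fold threshold 8 were lower and 1 higher (42.9%, beside 35.3% of all tested genes). The iron exporter ferroportin (*Slc40a1*) fell from 3043 ± 86.3 to 1535 ± 96.4 normalized counts (SD, n = 3), a log2 fold change of -0.99 (edgeR adjusted p = 0.000154). *Slc39a14*, an importer of iron not bound to transferrin, fell 2.16-fold (edgeR adjusted p = 0.000398), and the second transferrin receptor *Tfr2* fell from 104 ± 17.6 to 23.9 ± 8.71 normalized counts (edgeR adjusted p = 0.00257). The metalloreductase *Steap4* passed (edgeR adjusted p = 0.0347), but control 2 carried most of its control mean of 121 normalized counts (SD 167, n = 3). Its counts were 23.6, 314 and 26.2 in control and 6.83, 3.38 and 6.01 in knockout replicates 1, 2 and 3. *Steap2* rose 1.85-fold (edgeR adjusted p = 0.0208), and the ferritin heavy chain *Fth1* and the iron sensor *Ireb2* did not pass (log2 fold changes -0.28 and 0.01, edgeR adjusted p = 0.153 and 0.924).

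Of 16 receptors and partners of clusterin and extracellular chaperones, 11 were tested, of which 2 were higher and 5 lower (63.6%, beside 12% of all tested genes, 5.44% higher and 6.56% lower), at a median log2 fold change of -0.74. Megalin (*Lrp2*), an endocytic receptor of epithelia that binds clusterin, had 111, 34.9 and 174 normalized counts in Pa1F/F and 3374, 3582 and 1751 in Amh-pa1-/- replicates 1, 2 and 3. The groups did not overlap, and knockout 3 was the lowest of its group (log2 fold change 4.77, SE 0.54, edgeR adjusted p = 0.00117). Beside this, 11 epithelial markers of the rete testis and efferent ducts summed to between 43.1 and 48.8 CPM in control and between 61.3 and 68.8 CPM in knockout libraries, with 2 of 7 tested genes differentially expressed, both higher. These were *Krt19*, with 3, 1 and 1 counts in control and 53, 53 and 55 in knockout replicates 1, 2 and 3, and *Foxj1*, with 23, 24 and 28 and 76, 64 and 120 counts. *Epcam* and *Krt18* also rose (log2 fold changes 0.60 and 0.53, edgeR adjusted p = 0.00299 and 0.0121) and *Esr1* fell 1.99-fold (edgeR adjusted p = 0.00713). *Krt8*, the partner keratin of *Krt18*, had 77.6 ± 7.61 normalized counts in control and 45.6 ± 17.8 in knockout cells (SD, n = 3), lower with no overlap but not past the test (log2 fold change -0.77, edgeR adjusted p = 0.0965), and *Pax8*, *Aqp9* and *Slc9a3* had at most 6 counts in any library. The part of these cells in the rise of *Lrp2* was not tested. *Lrp8*, a receptor of the same family, went the other way, from 4503 ± 1289 to 2069 ± 154 normalized counts (SD, n = 3; edgeR adjusted p = 0.00719). *Vldlr* fell 3.72-fold (edgeR adjusted p = 0.000651) and *Lrp1* 1.67-fold (edgeR adjusted p = 0.000875). The lipid carrier *Apoe* fell 4.42-fold (edgeR adjusted p = 0.000308), and *Trem2*, a receptor of macrophages, fell from 43.8 ± 14.5 to 2.41 ± 1.52 normalized counts (edgeR adjusted p = 0.00151). The other lower gene, *Plxna4*, fell 3.34-fold (edgeR adjusted p = 0.00451), and the other higher gene, the protease inhibitor *A2m*, rose from 43.2 ± 10.1 to 289 ± 168 normalized counts (edgeR adjusted p = 0.00388). Both were named after their values were seen. Beside *Apoe* and *Trem2*, 10 of 12 tested macrophage markers were lower, and their part was not tested.

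Of 40 other secreted products of Sertoli cells, 37 were tested, of which 16 were differentially expressed and lower and 1, *A2m*, higher. That is 45.9%, beside 12% of all tested genes, at a median log2 fold change of -0.86. The lists share differentially expressed genes. *Apoe* and *A2m* also belong to the list around clusterin, and *Inha*, *Inhbb* and *Defb19* to the Sertoli cell markers. *Igfbp4*, a carrier of insulin-like growth factors, fell 5.90-fold (edgeR adjusted p = 0.000158), and *Gdnf*, a niche factor of spermatogonial stem cells, 2.50-fold (edgeR adjusted p = 0.000159). The defensin *Defb19* fell 2.68-fold (edgeR adjusted p = 0.000444) and the protease inhibitor *Timp1* 2.13-fold (edgeR adjusted p = 0.000531). The abundant *Sparc* had 100684 ± 3040.3 and 104289 ± 2219 normalized counts (SD, n = 3) and did not pass (log2 fold change 0.05, edgeR adjusted p = 0.755). *Psap* (sulfated glycoprotein 1) fell 1.31-fold (edgeR adjusted p = 0.00985) and *Timp2* 1.25-fold (edgeR adjusted p = 0.0155). Beside these products 3 of 4 tested Leydig cell, 10 of 12 macrophage and 3 of 5 spermatogonia markers were lower, as were the endothelial *Cdh5* and *Pecam1*. The endothelial *Vwf* rose, and *Id4* of the spermatogonia markers was higher without passing. The part of these cells was not tested.

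Of 50 genes of the secretory machinery, for signal recognition, translocation, folding and vesicle coats, none was differentially expressed with edgeR, DESeq2 or limma-voom, beside 12% of all tested genes with edgeR. An unadjusted p under 0.05 with edgeR was found for 26 of the 50 machinery genes and for 46% of all tested genes. Without the fold threshold 9 were higher and 12 lower (42.0%, beside 35.3% of all tested genes), at a median log2 fold change of -0.07 and a range from -0.61 to 0.59. The chaperone *Hspa5* and the disulfide isomerase *Pdia3* did not pass (edgeR adjusted p = 0.830 and 0.132), and *Calr* and *P4hb* fell 1.31-fold and 1.29-fold (edgeR adjusted p = 0.00413 and 0.0306).

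The list of FSH and androgen receptors and targets also holds Sertoli cell transcription factors, among them *Gata4*, *Nr5a1*, *Dmrt1*, *Sox9* and *Wt1*. In it 1 of 13 tested genes was differentially expressed (7.69%, beside 12% of all tested genes). This was the transcriptional cofactor *Cited1*, which fell from 982 ± 74.3 to 106 ± 93.2 normalized counts (SD, n = 3; edgeR adjusted p = 0.00479). Without the fold threshold 1 was higher, *Dmrt1*, and 3 were lower, *Cited1*, *Gata4* and *Nr5a1* (30.8%, beside 35.3% of all tested genes). The FSH receptor *Fshr* had 324, 263 and 351 normalized counts in control and 255, 314 and 419 in knockout replicates 1, 2 and 3, and the groups overlapped (log2 fold change 0.07, SE 0.20, edgeR adjusted p = 0.801). *Gata4* fell 1.84-fold (edgeR adjusted p = 0.000325), while *Sox9* and *Wt1*, which mark the cell type, did not pass (log2 fold changes -0.12 and 0.13, edgeR adjusted p = 0.613 and 0.449). Nor did *Tubb3* (log2 fold change 0.08, edgeR adjusted p = 0.675).

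**Figure D4:**
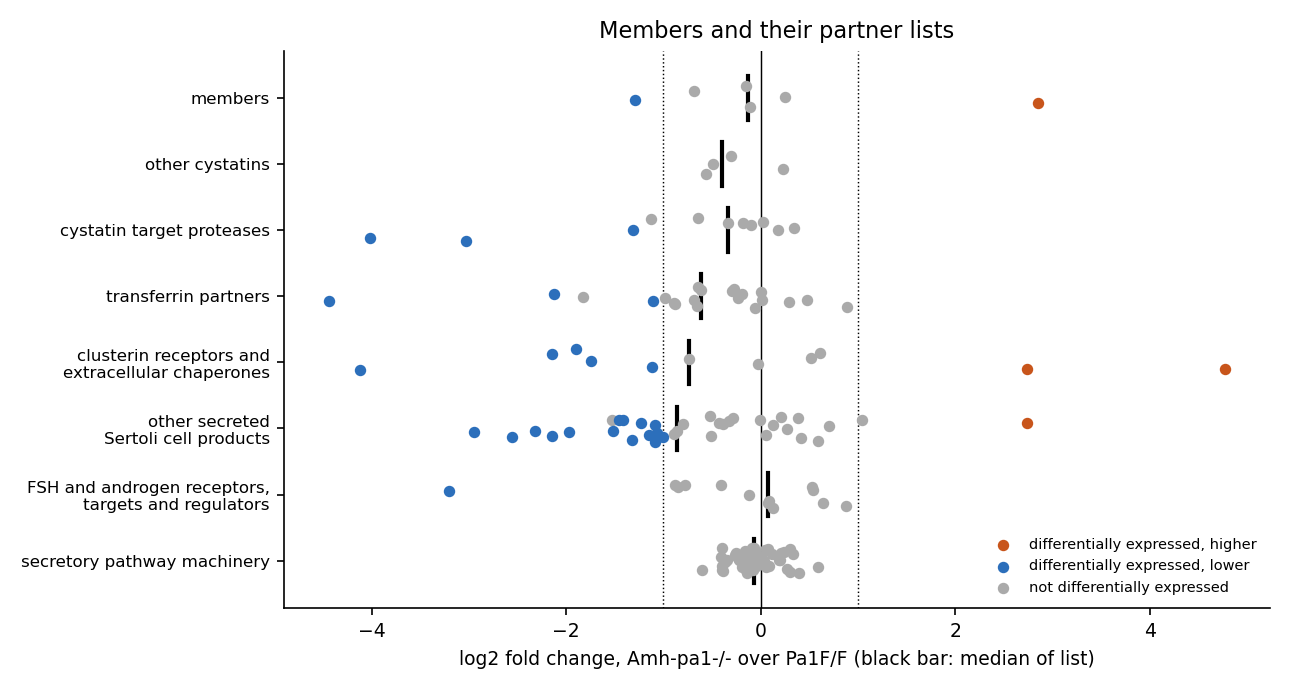
Log2 fold changes of the tested genes of each list, 1 point a gene, orange where differentially expressed and higher, blue where lower and grey otherwise, with a black bar at the median of each list and dotted lines at the thresholds of -1 and 1. Of the other secreted products 16 genes are differentially expressed and lower and 1 higher, and of the secretory machinery none.

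**Figure D5:**
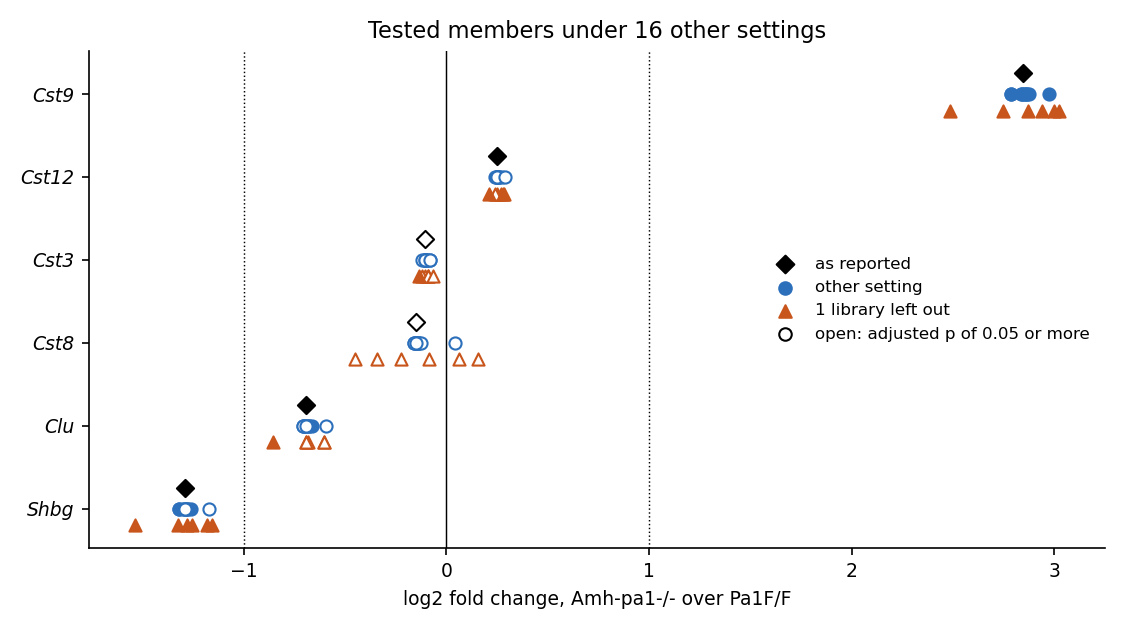
Log2 fold changes of the 6 tested members as reported (diamonds), under other settings (circles) and with 1 library left out (triangles), with filled symbols where the adjusted p-value is under 0.05. *Cst9* stays between 2.49 and 3.02, *Clu* is open in several settings, and *Cst8* lies on both sides of 0.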

How the data were processed

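RNA was sequenced from Sertoli cells in 3 control and 3 knockout libraries, grouped by their labels. The authors deposited raw counts per gene. The submitters' processing notes name HISAT2 2.1.0 and HTSeq 0.6.0, and the positions are those of GRCm38. The strand setting of the counting is not given in the sources used here. The table's own fold change and p-value columns were not used, and 0 count columns were left out. *Pa1* is not analysed here. Genes were kept by edgeR's filterByExpr (minimum count 10, total 15), scaled by TMM and fitted by quasi-likelihood, with its F-test (edgeR 4.0.16, R 4.3.3). The study's methods name DEGseq, which was not run here. Alternatives were DESeq2 1.42.0, limma-voom (3.58.1), a binomial test on summed reads, other scalings, filters and thresholds, a replicate block, summed close pairs and each library left out. The test was tried on simulated data first. Single values and ratios used exact permutation tests (scipy 1.17.1). Transcript lengths came from GENCODE M39, matched by Ensembl identifier. The members and gene lists were chosen with earlier results of these data known. Of each list, the text names up to 4 differentially expressed genes of lowest adjusted p, up to 4 others of highest mean count, and the receptors *Tfrc*, *Lrp2*, *Lrp8* and *Fshr*, and some genes that this rule names are not reported here.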

Additional observations from a re-analysis of the deposited data

How the results depend on the processing

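Differentially expressed genes numbered 1791 over all genes and 2 among the members. The glmTreat test for a change beyond 2-fold gave 538 and 1, no fold threshold gave 5266 and 4, and summing the close pairs of replicates, which leaves 2 libraries a group, gave 883 and 1. DESeq2 gave 1944 (899 higher and 1045 lower) and a binomial test on summed reads 2147 over all genes, with 2 members each. Leaving out each library gave between 1466 and 2076 over all genes and 2 among the members each time. *Cst8* changed sign with the close pairs summed (0.0425), without control 3 (0.15) and without knockout 1 (0.06), and lay between -0.45 and 0.15 with 1 library left out. The cause was not tested. Of 16 other settings an adjusted p under 0.05 was reached in 16 for *Cst9*, 14 for *Shbg*, 12 for *Cst12*, 9 for *Clu* and 2 for *Cst3*. With the close pairs summed the adjusted p with edgeR was 0.255 for *Clu*, 0.111 for *Cst12* and 0.0253 for *Cst9*. *Trf* was tested only by DESeq2 (adjusted p = 0.784) and with no filter (edgeR adjusted p = 0.663). *Trf* had counts at or near the floor, and *Cst8* had between 13 and 27 counts in each library.

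Deviations of same-numbered libraries from their group means correlated at 0.11, -0.16 and -0.18 over genes. Among all pairs of a control with a knockout library, control 2 with knockout 3 correlated highest (0.21). Control 1 and 3 correlated with knockout 1 and 2 at between 0.11 and 0.15. The replicate number does not follow this grouping, so a block on it does not take the grouping up. The source of the grouping was not tested. With the replicate number as a block, 1558 genes and 2 members were differentially expressed, with log2 fold changes of 2.78 for *Cst9* (edgeR adjusted p = 0.00623) and -1.32 for *Shbg* (0.0111). *Clu* and *Cst12* did not pass under the block (0.0773 and 0.0560).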

Other observations

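The nearest tested gene on each side of *Clu*, *Trf* and *Shbg* was looked up after values had been seen. Both neighbours of *Shbg* fell, as did 17.1% of all tested genes. *Atp1b2*, a subunit of the sodium pump 8861 bases away on the same strand, had 7075, 7927 and 6891 normalized counts in control and 1779, 2038 and 3457 in knockout replicates 1, 2 and 3 (log2 fold change -1.59, SE 0.24, edgeR adjusted p = 0.00340). *Sat2*, 4118 bases away on the opposite strand, had 635, 694 and 656 normalized counts in control and 241, 239 and 225 in knockout replicates 1, 2 and 3 (log2 fold change -1.49, SE 0.08, edgeR adjusted p = 9.11e-05). In both the groups did not overlap, and knockout 3 was nearest to the controls in *Atp1b2* but not in *Sat2*. Next to *Clu*, the scavenger receptor *Scara3*, 14547 bases away, had 2935, 2764 and 2932 normalized counts in control and 859, 882 and 1262 in knockout replicates 1, 2 and 3 (log2 fold change -1.52, SE 0.15, edgeR adjusted p = 0.000699), and *Ephx2* on the far side did not pass (log2 fold change 0.41, edgeR adjusted p = 0.0751). Next to *Trf*, *Topbp1* rose by 0.58 on the log2 scale (edgeR adjusted p = 0.0138), and *Srprb* did not pass (0.27, edgeR adjusted p = 0.0564).

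Of 11717 genes whose mean normalized count reached 50, those most like *Clu*, *Cst9*, *Cst12* or *Cst3* across the 6 libraries, by root mean square distance of centred log2 CPM, were *Prag1* (0.0256) and *Zfp46* (0.0469) for *Clu*, *Lingo2* (0.164) and *Gm11223* (0.192) for *Cst9*, *Pigm* (0.0179) and *Rtn3* (0.0193) for *Cst12* and *Mbd3* (0.0140) and *Copz1* (0.0169) for *Cst3*. *Cst9* had the greatest distance to its nearest gene among these 4 members.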
